A study of Mus musculus with 10 samples.

Results

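Excitatory nuclei that carried transcripts of several immediate early genes made up 351 of the 8829 excitatory nuclei of this series, and 351 of all 15661 barcodes. A nucleus was counted as excitatory when it had at least 500 unique molecular identifiers (UMIs, which count captured transcripts), at least 2 UMIs of Slc17a7, Sv2b and Arpp21 together, and at most 1 UMI of Gad1 and Gad2 together. It was chosen when at least 3 of the 9 genes Arc, Fos, Fosb, Egr1, Egr3, Egr4, Junb, Npas4 and Nr4a1 had a UMI. The chosen nuclei are called IEG nuclei here. The members were chosen by these measured UMI counts, so the levels of these 9 genes are a description of the rule and support nothing.

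The nuclei came from frozen hippocampus of wild-type C57B/6J mice of 4 to 7 months, with no stimulation, sorted after 7AAD staining and profiled by droplet single-nucleus RNA sequencing of transcript 3′ ends. The 10 samples form 1 group, although 4 carry titles naming RNASET2 controls. All nuclei lie in 1 matrix of 24837 genes and 101300889 UMIs, whose barcodes carry suffixes 1 to 7, called barcode sets here. The labels do not say which sample a set is, so the data are 1 sample without replicates. There is no test or p-value, each 95% interval covers counting error only, and a set describes itself alone. A fold of 2 is used as a size, not as a test.

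Immediate early genes are transcribed within minutes of strong synaptic input, without new protein synthesis, when calcium entry and kinase signalling act on factors such as CREB and SRF that already sit at their promoters. Most encode transcription factors (Fos, Fosb, Junb, Egr1, Egr3, Egr4, Npas4, Nr4a1), which in turn drive later genes for synaptic and secreted proteins, while Arc encodes a protein that promotes removal of AMPA receptors from synapses. In the hippocampus they are widely used to mark neurons that were recently active, and dentate granule cells are known for showing them in few cells at a time.

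The IEG nuclei were 3.98% of excitatory nuclei (95% Clopper-Pearson interval 3.58 to 4.40%). Their share was 9.72% in set 1 (123 of 1266 nuclei), 2.56% in set 2 (44 of 1720) and 3.03% in set 3 (44 of 1453). It was 4.07% in set 4 (45 of 1105), 5.29% in set 5 (82 of 1550) and 0.760% in set 6 (13 of 1711), and set 7 held none among 24. Set 1 had the highest share and set 6 the lowest of the 6 sets with IEG nuclei, and the intervals of those 2 sets (8.14 to 11.5% and 0.405 to 1.30%) did not overlap those of the other 4. IEG nuclei were deep, with a median of 11239 UMIs against 6245 in all excitatory nuclei and 4928 in those with none of the 9 genes.

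The share was also read at 1 common depth. After each nucleus was thinned to 2000 UMIs, leaving out 567 shallower ones, 59 of 8262 nuclei (0.714%) still had 3 of the genes. Of these, 35 lay in set 5 (2.51% of its nuclei, where the unthinned share was 5.29%) and 18 in set 1 (1.44%, unthinned 9.72%). Sets 2, 3 and 4, whose median depth was 9946 to 11024 UMIs, kept 1, 0 and 0, and set 6 kept 5 (0.370%). The order of the sets thus changed with depth, and at equal depth nearly all IEG nuclei lay in sets 1, 5 and 6. Summed over the IEG nuclei of a set, the 9 genes stood at 722, 240, 288, 251, 1100 and 1347 CPM (UMIs scaled to a total of 1000000) in sets 1 to 6. The rule asks for at least 3 UMIs of these genes in each nucleus, which is a larger CPM in a shallower nucleus. Median depth of the IEG nuclei was 11676, 17404, 14265, 16430, 3896 and 3303 UMIs in sets 1 to 6, so nothing is read from the order of these levels.

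Within the IEG nuclei the number of genes seen was mostly at the threshold. Exactly 3 of the 9 genes were seen in 217 nuclei, exactly 4 in 73 and at least 5 in 61, and 1 nucleus had all 9. Of the 61 with at least 5 genes, 33 lay in set 1, 20 in set 5, 5 in set 2, 2 in set 3 and 1 in set 6. The nuclei with exactly 3 had a median of 4 UMIs of the 9 genes each, against a median of 2 UMIs in the 659 nuclei just outside the threshold, with exactly 2 genes. The highest count was 58 UMIs of these genes in a nucleus of set 1.

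Nr4a1, an orphan nuclear receptor that acts as a transcription factor, was the gene seen most often. It had a UMI in 288 of 351 IEG nuclei (82.1%), against 453 of the 659 nuclei with exactly 2 genes (68.7%) and 18.9% of all excitatory nuclei. Junb, an AP-1 factor, was seen in 219 IEG nuclei (62.4%) and Arc in 218 (62.1%). These 3 genes formed the commonest combination of exactly 3, found in 30 nuclei, and the commonest pairs were Junb with Nr4a1 (170 nuclei) and Arc with Nr4a1 (169).

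The remaining genes of the rule were rarer. Npas4, a factor induced by calcium entry that governs inhibitory synapses, was seen in 151 IEG nuclei (43.0%), Egr1 in 147 (41.9%), Egr3 in 99 (28.2%) and Egr4 in 84 (23.9%). Fos, the classic activity marker and a partner in AP-1 dimers, was seen in 70 (19.9%) and Fosb in 28 (7.98%). In the nuclei with exactly 3 genes Fos was seen in 9.68%, and in those with at least 5 genes in 60.7%, while Nr4a1 stood at 80.6% and 90.2%. A nucleus with more of the 9 genes has more of each by construction, so nothing is read from these shares.

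The shares of IEG nuclei with each gene of the rule are given by barcode set as a description. Arc was seen in 77.2% of IEG nuclei of set 1 and in 42.2 to 54.5% of those of sets 2 to 4, and Egr1 in 61.0% of set 1 and 17.8 to 34.1% of sets 2 to 4. Nr4a1 ran the other way, at 74.8% in set 1 and 88.6 to 90.9% in sets 2 to 4. Npas4 was seen in 57.3% of IEG nuclei of set 5 and 76.9% (10 of 13) of set 6, against 18.2% in set 3. Exactly 3 genes of the rule were seen in 43.1% of IEG nuclei of set 1 and in 81.8 to 88.9% of those of sets 2 to 4. Depth also differed between the sets. These genes chose the nuclei, so nothing is read from the differences between sets in these shares.

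**Figure D1:**
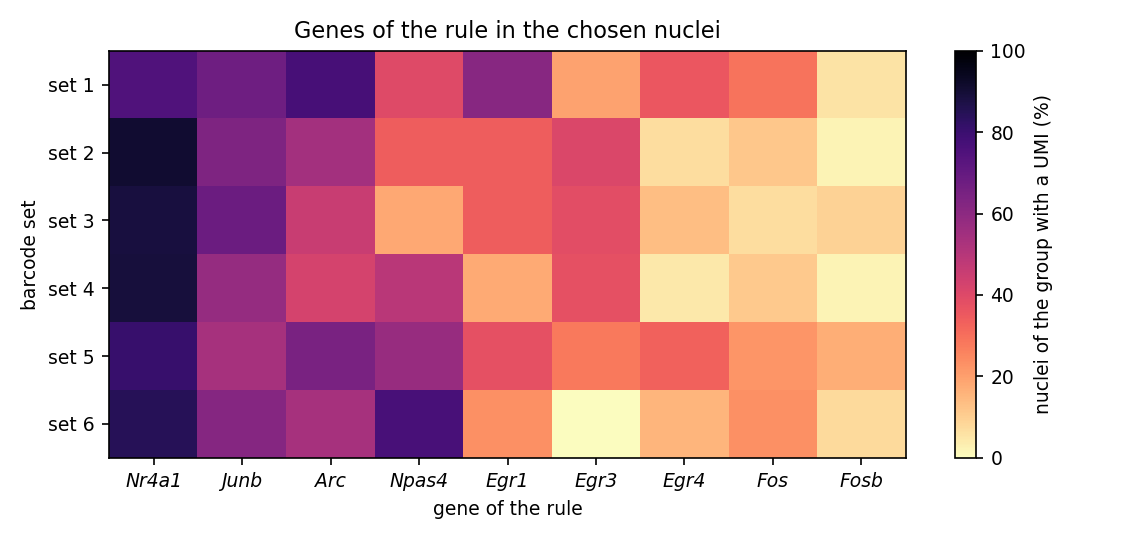
Share of IEG nuclei (%, colour) with a UMI of each gene of the rule (columns), by barcode set (rows; 123, 44, 44, 45, 82 and 13 nuclei in sets 1 to 6). Nr4a1 is dark in every row, Arc and Egr1 are darkest in set 1, and Npas4 in set 6.

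Glial nuclei gave the level of stray transcripts. In all excitatory nuclei, at a median of 6245 UMIs, Nr4a1 was seen in 18.9%, Arc in 6.97%, Egr1 in 4.25% and Fos in 1.22%. The corresponding shares in 2744 oligodendrocyte-marked nuclei, at a median of 1772 UMIs, were 1.38%, 1.35%, 0.692% and 0.219%. Only 1 of the 2744 oligodendrocyte-marked nuclei (0.0364%) had 3 or more of the 9 genes. In levels the 2 kinds of nuclei were closer: Nr4a1 was at 37.1 CPM in excitatory and 6.94 CPM in oligodendrocyte-marked nuclei, Arc at 12.7 and 6.60 CPM, Fos at 2.15 and 1.39 CPM, and Egr1 at 6.54 and 6.94 CPM. Over all excitatory nuclei the level of Egr1 was thus no higher than in oligodendrocyte-marked nuclei. In dentate granule-like nuclei, at a median of 6696 UMIs, Arc was seen in 16 nuclei (0.807%), a share below that of oligodendrocyte-marked nuclei, and 11 of its 23 UMIs there lay in 4 of the 5 dentate granule-like IEG nuclei.

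IEG nuclei were not spread evenly over the excitatory classes, which were rebuilt from clusters made without the 9 genes and without any listed gene. CA1 pyramidal-like nuclei, the output neurons of the hippocampus, gave 163 of the 351 (46.4%) and were 31.4% of excitatory nuclei. Subicular-type nuclei gave 58 (16.5%, against 6.39% of excitatory nuclei), and dentate granule-like nuclei gave 5 (1.42%, against 22.5%). The share within a class was 5.88% in CA1-like (5.03 to 6.82%), 10.3% in subicular-type (7.90 to 13.1%), 4.18% in CA2/CA3-like (2.99 to 5.67%) and 0.252% in dentate granule-like nuclei (0.0819 to 0.587%). Mossy-cell-like nuclei, the hilar excitatory cells, had 7 of 53 (13.2%, 5.48 to 25.3%), deep-layer-type nuclei 11 of 398 (2.76%) and upper-layer-type nuclei 1 of 78.

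Dentate granule-like nuclei had a median of 6696 UMIs, above the 4471 of CA1-like and the 5467 of subicular-type nuclei and below the 9797 of CA2/CA3-like nuclei. After thinning to 2000 UMIs the shares were 0.106% in dentate granule-like, 1.41% in CA1-like, 1.43% in subicular-type and 0.326% in CA2/CA3-like nuclei. The thinned interval of dentate granule-like nuclei (0.0129 to 0.383%) lay below that of CA1-like nuclei (0.997 to 1.94%) and overlapped that of CA2/CA3-like nuclei (0.0673 to 0.950%). These shares pool sets of unequal make-up: the 37 thinned CA1-like IEG nuclei lay in set 5 (20 of 620), set 1 (13 of 217), set 6 (3 of 668) and set 2 (1 of 484). Set 5 held 32 dentate granule-like nuclei of that depth, and in sets 2 to 4 the thinned counts were 1, 0 and 0 in CA1-like and 0, 0 and 0 in dentate granule-like nuclei. Mossy-cell-like nuclei were the deepest class, at 16472 UMIs, and kept 1 of 53 after thinning.

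Without thinning, set 1 also had the highest share within CA1-like, CA2/CA3-like and subicular-type nuclei, but not within dentate granule-like nuclei. Of its 217 CA1-like nuclei, 63 (29.0%, 23.1 to 35.6%) were IEG nuclei, against 3.09 to 7.58% of the CA1-like nuclei of sets 2 to 5 and 0.625% of those of set 6. Of its 110 CA2/CA3-like nuclei, 14 (12.7%) were, against 1.20 to 4.76% elsewhere. In subicular-type nuclei, set 1 had 14 of 18, sets 2 to 5 lay between 9.71 and 12.5%, and set 6 was at 2.89%. Dentate granule-like nuclei stayed at 3 of 591 (0.508%) in set 1 and 2 of 326 (0.614%) in set 4, with none in sets 2, 3, 5 and 6. After thinning, the intervals of sets 1 and 5 overlapped: CA1-like nuclei were at 5.99% (3.23 to 10.0%) in set 1 and 3.23% (1.98 to 4.94%) in set 5, and CA2/CA3-like nuclei at 0 of 110 in set 1 and 3 of 153 in set 5.

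**Figure D2:**
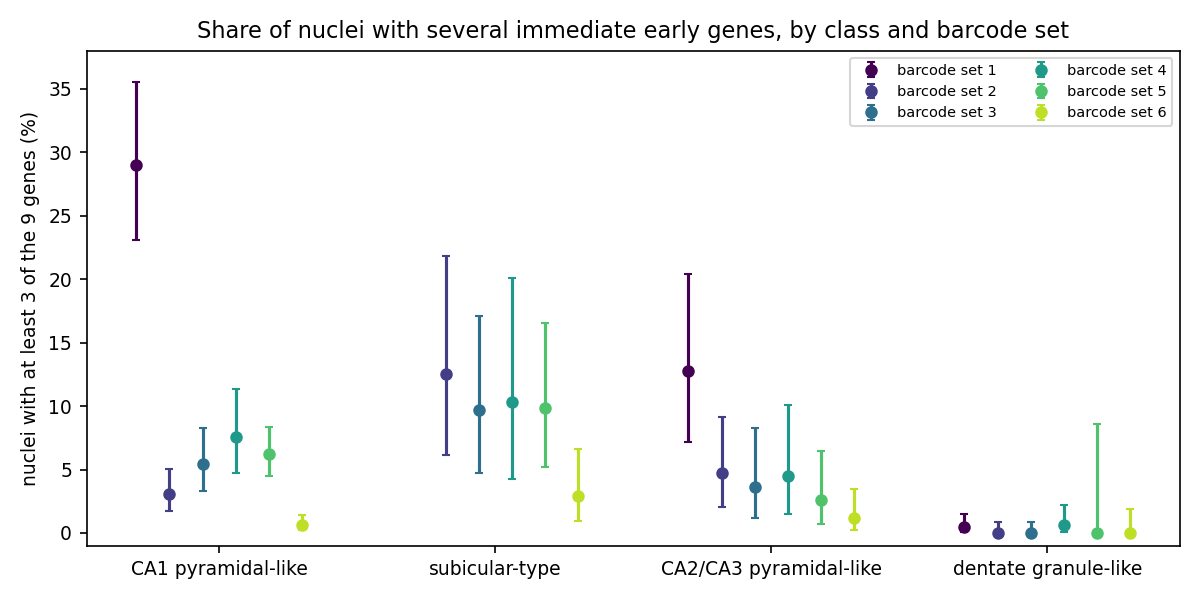
Share of nuclei that were IEG nuclei (%, points, with 95% Clopper-Pearson intervals) in 4 classes and barcode sets 1 to 6. Set 1 of the CA1-like class stands highest at 29.0%, and no dentate granule-like point exceeds 0.614%; set 1 of the subicular-type class is not drawn because it holds 18 nuclei.

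In CA1-like nuclei, 62 of the 163 IEG nuclei lay in 1 cluster of 208 nuclei. This cluster held 205 of the 217 CA1-like nuclei of set 1, so it follows the barcode set. Arc, Egr1 and Egr4, which had not been used to form it, were among its 10 leading genes. As 62 of its nuclei were chosen by these genes, this describes the rule and supports nothing. The 2 CA1-like clusters with Dcn among their leading genes held 6 of 318 and 10 of 287. In all, 67 IEG nuclei lay in clusters left unnamed. Of these, 15 were in a cluster with raised oligodendrocyte markers, 13 in 1 with raised inhibitory markers, 10 in 1 with raised microglial markers and 13 in a cluster of 101 nuclei led by Glod5 and Ntsr2. The doublet caller marked 11 IEG nuclei (3.13%) and 150 excitatory nuclei (1.70%), and it worked, with over 0.5% called, only in sets 1, 3 and 4. Of 21 barcode sequences shared by 2 sets, 2 belonged to IEG nuclei.

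Of the 5 dentate granule-like IEG nuclei, 2 in set 1 held 44 UMIs of the 9 genes among 4260 and 36 among 5437. Btg2, an early antiproliferative regulator outside the rule, had 5 and 9 UMIs in these 2. The other 3 held 4 or 5 UMIs of the 9 genes among 8486 to 11308, and no Btg2. One of these 3, in set 4, had 13 UMIs of Nr4a3, 5 of Nr4a2, 5 of Bdnf and 16 of Homer1, while the first 2 had none of Nr4a3 and 0 and 1 of Nr4a2. The dentate granule-like IEG nuclei thus differed among themselves in which early genes they held.

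Genes outside the rule were compared between IEG nuclei and nuclei with none of the 9 genes. For each IEG nucleus, the 3 nuclei nearest in UMIs, within 10%, were taken from the same barcode set and the same class, which was possible for 189 of the 351. These 189 and their 567 matched nuclei had median depths of 7945 and 7702 UMIs, mitochondrial transcripts at 101 and 99.9 CPM, and 5 called doublets on each side. CPM leaves the 9 genes out of the total. The matched IEG nuclei hold 29 of the 61 with at least 5 genes, 22 of the 58 subicular-type, 104 of the 163 CA1-like and none of the 7 mossy-cell-like nuclei, so they are not a cross-section of the group.

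The early genes outside the rule were higher in IEG nuclei as a group. Of 7469 genes with at least 100 UMIs over both sides, 31 (0.415%) had at least a 2-fold higher level in IEG nuclei, and 51 (0.683%) were lower by that factor. With 30 UMIs as the minimum, 99 of 10761 genes (0.92%) were higher by 2-fold or more and 266 (2.47%) lower. Against that background, 10 of 19 other early transcription regulators with enough UMIs (of 32 listed), 4 of 13 signal feedback genes (of 16) and 10 of 19 synaptic and secreted activity genes (of 28) were at least 2-fold higher, and none of the 3 lists had a gene at least 2-fold lower. In sets 2 to 4 alone the counts were 6 of 12, 1 of 9 and 3 of 18, with 1 early regulator at least 2-fold lower, and without set 5 they were 9 of 18, 2 of 12 and 6 of 18. Of 5733 genes with at least 100 UMIs in sets 2 to 4, 0.314% were at least 2-fold higher and 0.855% lower. Without set 5 these shares were 0.316% and 0.561% of 6957 genes. The lists took genes from 30 UMIs, a lower minimum. Over all sets the median log2 ratios of the 3 lists were 1.03, 0.82 and 1.01, beside -0.05 over all 10761 genes.

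Among transcription regulators, the other 2 members of the Nr4a family of nuclear receptors stood highest of the well-counted genes. Nr4a2 was at 118 CPM in IEG nuclei and 23.96 CPM in matched nuclei, a ratio of 4.94 (3.94 to 6.21), and was seen in 43.4% and 14.6% of nuclei. It lies at chr2:57106830-57124003 on the minus strand (GRCm38). By set, Nr4a2 was at 75.8, 50.2, 55.2, 64.9, 476 and 283 CPM in IEG nuclei of sets 1 to 6 and at 15.6, 33.8, 16.0, 11.9, 44.0 and 50.6 CPM in matched nuclei. Its ratio was above 1 in every one of the 6 sets, least in set 2 (1.49, 0.849 to 2.54) and most in set 5.

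Nr4a3 was at 118 CPM in IEG nuclei and 26.6 CPM in matched nuclei, a ratio of 4.42 (3.55 to 5.52). In set 5 it reached 448 CPM in IEG nuclei against 22.8 CPM in matched nuclei, a ratio of 19.7, and in the other 5 sets the ratio was 1.95 to 3.10. Without set 5 the ratio over the remaining sets was 2.59 for Nr4a3 and 3.19 for Nr4a2. Both genes thus had a ratio above 1 in all 6 sets, and set 5 carried much of the size. The interval included 1 for Nr4a2 in set 2 and for Nr4a3 in set 6 (0.416 to 8.46).

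Tiparp, a mono-ADP-ribosyltransferase that represses the aryl hydrocarbon receptor, was at 42.4 CPM in IEG nuclei and 10.9 CPM in matched nuclei (ratio 3.88, 2.72 to 5.58). By set its ratio was 2.01, 0.812, 1.87, 4.78, 11.6 and 6.02, so it was not higher in set 2, and without set 5 its ratio was 2.26. Per1, a clock gene with an activity-responsive promoter, was at 40.2 and 13.8 CPM (ratio 2.91, 2.07 to 4.10), and its 6 set ratios lay between 1.70 and 4.38. Among these 4 regulators Per1 had the narrowest range of set ratios.

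Sparser regulators had larger ratios with wide intervals. Btg2 was at 41.3 CPM in IEG nuclei and 4.03 CPM in matched nuclei (ratio 10.3, 6.25 to 17.6), at 155 and 9.34 CPM in set 1 and at 72.5 and 3.03 CPM in set 5, but at 2.70 and 3.67 CPM in set 4. Fosl2, an AP-1 factor, had a ratio of 5.36 (3.28 to 8.92) and Gadd45g, a growth arrest gene linked to DNA demethylation, 5.17 (3.06 to 8.92). Without set 1 the ratio of Btg2 was 5.43, and without set 5 that of Fosl2 was 3.48. In sets 2 to 4 alone, Btg2, Fosl2 and Gadd45g had ratios of 1.77, 2.25 and 1.11. Jun, partner of Fos in AP-1, was at 1.83 (1.24 to 2.66) but at 0.817 in sets 2 to 4, and Crem, Per2, Klf10 and Fosl1 had intervals that included 1.

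Feedback genes, which shut off the kinase signals that induce early genes, were higher in part. Dusp1 and Dusp6, phosphatases of MAP kinases, were at 15.3 and 14.1 CPM in IEG nuclei and both at 2.88 CPM in matched nuclei (ratios 5.31 and 4.92). Dusp1 rested on sets 1 and 5, where its ratio was 10.2 and 23.9, and it was at 0.805 in sets 2 to 4 and at 2.49 without set 5. Spry2, an inhibitor of receptor tyrosine kinase signalling, was at 29.4 and 11.3 CPM (ratio 2.60, 1.76 to 3.84), and Errfi1, an inhibitor of the EGF receptor, at 61.1 and 27.4 CPM (ratio 2.23, 1.72 to 2.88). Without set 5 the ratio of Spry2 was 1.82, under the 2-fold size. Pde10a, a cyclic nucleotide phosphodiesterase, was at 1563 and 883 CPM (ratio 1.77, 1.69 to 1.86), under the 2-fold size.

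Among synaptic and secreted genes, Bdnf, the neurotrophin that supports synaptic strengthening, was at 86.6 CPM in IEG nuclei and 23.2 CPM in matched nuclei (ratio 3.73, 2.92 to 4.78). By set, Bdnf was at 103, 29.7, 38.7, 81.1, 236 and 218 CPM in IEG nuclei of sets 1 to 6 and at 31.1, 19.9, 29.2, 18.4, 15.2 and 28.9 CPM in matched nuclei. It was higher in all 6 sets, least in sets 2 and 3, with ratios of 1.49 and 1.32.

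Scg2, the precursor of the neuropeptide secretoneurin, was at 90.6 CPM in IEG nuclei and 28.2 CPM in matched nuclei (ratio 3.21, 2.55 to 4.05). Its level in matched nuclei was itself uneven, at 107 CPM in set 1 and 8.26 to 21.7 CPM in sets 2 to 6, and without set 1 its ratio was 5.38. Pcsk1, a convertase that cleaves prohormones, was at 50.9 and 18.8 CPM (ratio 2.71, 2.01 to 3.65), and Vgf, another neuropeptide precursor, at 36.2 and 13.4 CPM (ratio 2.70, 1.89 to 3.84). Without set 5 the ratio of Pcsk1 was 1.87, under the 2-fold size. Vgf was not higher in set 3, where it was at 5.52 CPM in IEG nuclei and 6.59 CPM in matched nuclei.

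Homer1, which encodes a postsynaptic scaffold with a short activity-induced isoform, was the most abundant of the 10 genes of this list that were at least 2-fold higher, at 405 CPM in IEG nuclei and 165 CPM in matched nuclei (ratio 2.45, 2.22 to 2.71). Gene-level counts do not separate its isoforms. Nptx2, a pentraxin that clusters AMPA receptors, had 23 UMIs in IEG nuclei and 11 in matched nuclei (ratio 6.17, 2.89 to 14.0), and Ptgs2, the inducible cyclooxygenase, had a ratio of 3.07 (1.72 to 5.47). Not all activity genes differed by this size. Inhba, a subunit of activin, was at 136 and 149 CPM (ratio 0.913, 0.787 to 1.06), Nrn1 and Lingo1 had intervals that included 1, and Sorcs3 was at 603 and 449 CPM (ratio 1.34, 1.25 to 1.45).

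**Figure D3:**
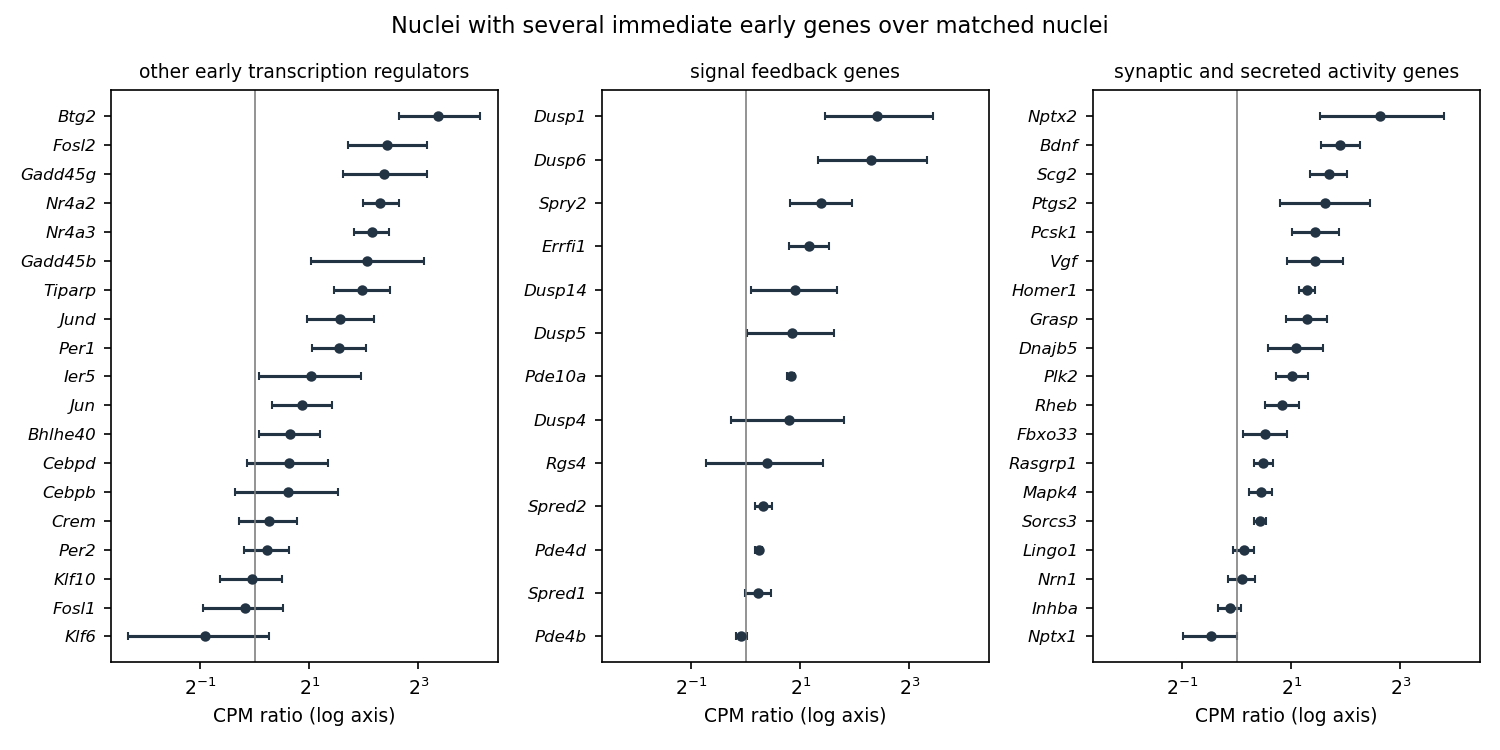
CPM ratio of 189 IEG nuclei over 567 matched nuclei (points, log axis, with 95% intervals for counting error) for the genes of 3 lists with at least 30 UMIs over both sides. Most points lie right of the line at 1, up to 10.3 for Btg2, and of those left of it Inhba, Klf6, Klf10, Fosl1 and Pde4b have intervals that include 1 while that of Nptx1 ends just under it.

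**Figure D4:**
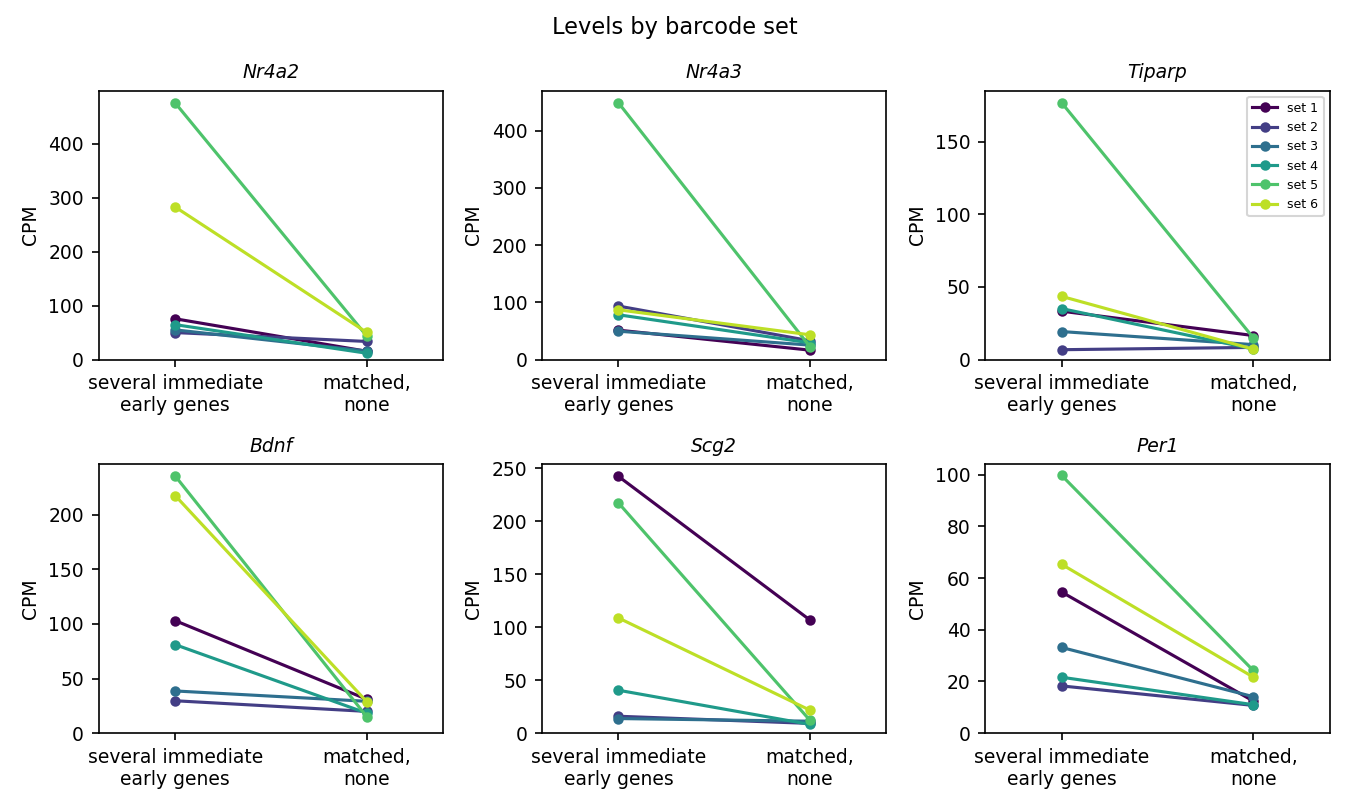
CPM of 6 genes in IEG nuclei (left) and matched nuclei with none of the 9 genes (right), joined for each of barcode sets 1 to 6. Set 5 has the steepest lines for Nr4a2, Nr4a3, Tiparp, Bdnf and Scg2, and the matched level of Scg2 is high in set 1.

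Promoter sequence is shown for genes on both sides of the rule because CREB binds cAMP response elements (CRE) near many activity genes. Below are the 250 bases before the start site, in RefSeq coordinates on GRCm38.p6, 5′ to 3′ on the strand of the gene. Capitals mark the CRE half-site TGACG on either strand, and a full palindromic CRE, TGACGTCA, which contains the half-site on both strands. The windows are chr12:85473640-85473889 (+) for Fos, chr19:4989972-4990221 (-) for Npas4, chr15:101266596-101266845 (+) for Nr4a1, chr2:57124004-57124253 (-) for Nr4a2, chr1:79440027-79440276 (-) for Scg2 and chr13:75089607-75089856 (+) for Pcsk1. 
Fos: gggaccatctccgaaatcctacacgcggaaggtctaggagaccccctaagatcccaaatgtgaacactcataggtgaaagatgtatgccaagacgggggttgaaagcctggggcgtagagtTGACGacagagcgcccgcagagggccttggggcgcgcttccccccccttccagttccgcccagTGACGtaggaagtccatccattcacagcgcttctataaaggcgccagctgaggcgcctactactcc
Npas4: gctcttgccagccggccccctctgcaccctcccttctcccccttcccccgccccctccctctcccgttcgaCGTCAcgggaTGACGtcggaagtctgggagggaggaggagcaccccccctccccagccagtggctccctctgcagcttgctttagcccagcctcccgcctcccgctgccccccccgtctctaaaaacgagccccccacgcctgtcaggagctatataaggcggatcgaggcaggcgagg
Nr4a1: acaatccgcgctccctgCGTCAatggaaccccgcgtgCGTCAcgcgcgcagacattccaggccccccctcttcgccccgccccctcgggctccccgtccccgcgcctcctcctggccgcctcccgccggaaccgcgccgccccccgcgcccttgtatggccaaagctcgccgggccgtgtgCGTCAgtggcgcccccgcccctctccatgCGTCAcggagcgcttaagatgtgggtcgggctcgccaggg
Nr4a2: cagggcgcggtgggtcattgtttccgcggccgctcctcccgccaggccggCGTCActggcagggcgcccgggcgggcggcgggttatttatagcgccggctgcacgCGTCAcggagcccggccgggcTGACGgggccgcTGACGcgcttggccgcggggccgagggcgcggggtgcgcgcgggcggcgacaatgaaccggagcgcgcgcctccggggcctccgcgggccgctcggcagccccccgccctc
Scg2: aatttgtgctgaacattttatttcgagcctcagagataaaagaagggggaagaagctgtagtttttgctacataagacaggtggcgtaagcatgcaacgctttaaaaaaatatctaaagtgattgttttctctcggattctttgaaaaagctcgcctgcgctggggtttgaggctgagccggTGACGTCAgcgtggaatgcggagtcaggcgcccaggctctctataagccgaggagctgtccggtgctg
Pcsk1: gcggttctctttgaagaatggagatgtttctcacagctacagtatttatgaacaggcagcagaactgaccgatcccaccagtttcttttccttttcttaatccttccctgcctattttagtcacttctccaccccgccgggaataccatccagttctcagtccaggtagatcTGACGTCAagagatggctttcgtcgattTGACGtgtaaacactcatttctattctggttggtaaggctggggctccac

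The half-site was present in all 6 genes of the rule that have an entry in the promoter table (Fos, Fosb, Egr4, Junb, Npas4 and Nr4a1), and in 19.8% of the 27025 genes of that table. In the 3 lists outside the rule it was present in 12 of 22 early regulators, 7 of 14 feedback genes and 10 of 21 synaptic and secreted genes with an entry. Nr4a1 and Nr4a2 each had 4 half-sites and Fos and Npas4 each had 2. A full CRE was present in Scg2, Pcsk1 and Btg2, in none of the 6 genes of the rule, and in 1.77% of all genes. The Egr site, GCGGGGGCG or GCGTGGGCG on either strand, was present in 2 of the 6 genes of the rule and in 3.47% of all genes, and in 5 of 22 early regulators, 1 of 14 feedback genes and 0 of 21 synaptic and secreted genes. The CArG box, the SRF motif, was present in 0 of 6 genes of the rule, 2 of 22, 1 of 14 and 0 of 21 genes of the 3 lists, and 1.62% of all genes. These matches describe letters in a window of 250 bases and do not show binding.

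Some leading genes of the comparison lie outside all the activity lists. Col11a1, a fibrillar collagen chain, was at 110 CPM in IEG nuclei and 32.8 CPM in matched nuclei (ratio 3.35, 2.71 to 4.14), and its ratio was 2.23 when matched within single clusters. Unlike the early genes, its ratio was lowest in set 1, at 1.48, and 5.13, 6.37 and 4.85 in sets 2 to 4. Fgf1, a fibroblast growth factor, was at 99.6 and 34.3 CPM (ratio 2.90, 2.34 to 3.59). It overlaps Arhgap26 on the opposite strand, as Dusp1 does Ergic1 and Grin2d does Kdelr1. The sources used here do not say whether strand was used to tell reads of such pairs apart.

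Epha10, an ephrin receptor without kinase activity, was at 213 CPM in IEG nuclei and 74.6 CPM in matched nuclei (ratio 2.85, 2.47 to 3.30). By set, Epha10 was at 288, 112, 110, 189, 467 and 413 CPM in IEG nuclei of sets 1 to 6 and at 111, 54.5, 46.1, 54.2, 130 and 123 CPM in matched nuclei. Its ratio stayed between 2.05 and 3.58 in all 6 sets, the narrowest range among the 12 highest genes. Epha10 was seen in 65.1% of IEG nuclei and 35.1% of matched nuclei.

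Among genes with at least 100 UMIs and a ratio under 1 in both sets with at least 50 IEG nuclei, the 12 lowest were Prtg, Star, Ston2, Kcng1, Dchs2, Rab31, Prxl2a, Tmem168, Rsph3a, Reln, Mov10l1 and Pde11a. Prtg, an immunoglobulin superfamily protein of early neural development, was at 7.36 CPM in IEG nuclei and 32.2 CPM in matched nuclei (ratio 0.228, 0.119 to 0.401), and no set had a ratio above 0.351. Star, which moves cholesterol into mitochondria for steroid synthesis, was at 4.53 and 19.0 CPM (ratio 0.239), and Ston2, an endocytic adaptor, at 5.66 and 18.8 CPM (ratio 0.301). Kcng1, a modifier subunit of potassium channels, was at 6.23 and 20.1 CPM (ratio 0.309), and Rab31, a vesicle-trafficking GTPase, at 15.8 and 46.2 CPM (ratio 0.343). Without 1 set, Reln was at 0.529 (set 3) and Mov10l1 at 0.245 (set 2).

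Pde11a, a phosphodiesterase of both cyclic nucleotides, was at 62.8 CPM in IEG nuclei and 156 CPM in matched nuclei (ratio 0.402, 0.327 to 0.491), and was also among the leading genes of 2 CA1-like clusters. Matched within single clusters instead of classes, Pde11a had a ratio of 0.466, Prtg 0.272, Star 0.271, Kcng1 0.463 and Rab31 0.426. The count of genes at least 2-fold lower was then 27, against 51 by class, while that of higher genes was 30, against 31. The share of the lower genes that follows subgroups finer than these clusters was not tested.

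Genes that receive and pass on the signal were closer to the matched level. Of 22 upstream kinases and transcription factors with enough UMIs (of 24), none was 2-fold higher or lower, and the median log2 ratio was -0.12. Intervals lay above 1 for 1 and below 1 for 5 of the 22, and for 7.27% and 9.13% of all 10761 genes. Over all 10761 genes 0.92% were at least 2-fold higher and 2.47% lower. Finding none in a list this short, here and in the lists below, therefore says little about the list. Creb1, the factor that binds CRE sites, was at 67.9 CPM in IEG nuclei and 55.0 CPM in matched nuclei (ratio 1.23, 0.989 to 1.53), and Rps6ka5, a kinase of histone H3 and CREB, at 57.2 and 104 CPM (ratio 0.547, 0.438 to 0.678; 0.485 without set 1). Mef2c, an activity-dependent factor that limits synapse number, was at 106 and 155 CPM (ratio 0.682). Camk2g, a calcium-dependent kinase, and Crtc2, a CREB coactivator, had ratios of 0.665 (0.517 to 0.847) and 0.638 (0.347 to 1.11; 0.442 without set 1). In set 1 the ratio of Mef2c was above 1, at 1.24, with an interval that included 1 (0.836 to 1.82).

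Receptor and channel genes with enough UMIs, all but Grin2d, lay within 2-fold of the matched level, but many intervals excluded 1. Intervals lay above 1 for 8 and below 1 for 8 of 21 glutamate receptor genes, and for 5 and 6 of 28 channel genes. Over all 10761 genes these shares were 7.27% and 9.13%. Intervals narrow with UMIs, and the receptor genes held 44236 and 126217 on the 2 sides. Of 21 glutamate receptor genes, none was 2-fold higher and 1, Grin2d, an NMDA receptor subunit, was 2-fold lower (6.23 CPM in IEG nuclei, 14.4 CPM in matched nuclei, ratio 0.433, 0.207 to 0.820), with a list median of -0.04. Without set 2 the ratio of Grin2d was 0.568. Grin2a and Grin2b, the main NMDA receptor subunits of adult hippocampus, had ratios of 1.14 (1.11 to 1.17) and 1.07 (1.03 to 1.10). Grik1, a kainate receptor subunit, was at 58.3 CPM in IEG nuclei and 42.9 CPM in matched nuclei (ratio 1.36, 1.06 to 1.72), with a ratio of 0.476 (0.256 to 0.827) in set 1 and 0.902 in set 2 and of 2.75, 4.42 and 3.51 in sets 3 to 5. Of 28 voltage-gated channel genes none was past 2-fold, with a list median of -0.01. Kcnh7, an erg-type potassium channel, stood highest, at 1774 CPM in IEG nuclei and 1284 CPM in matched nuclei (ratio 1.38, 1.32 to 1.44), and its ratio was above 1 in all 6 sets.

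The genes that write H3K4 methylation, the subject of the series title, did not differ by 2-fold. Of 16 H3K4 methyltransferase and COMPASS genes none was past 2-fold in either direction, none had an interval that excluded 1, and the median log2 ratio was -0.11. Over all 10761 genes, 0.92% were at least 2-fold higher and 2.47% lower. Intervals lay above 1 for 7.27% of them and below 1 for 9.13%. When IEG nuclei were limited to those with at least 4 of the 9 genes (65 and 195 nuclei), 3 of 13 genes of this list were at least 2-fold lower, with a median of -0.39, and Setd1b was at 0.456. Over the 3234 genes with at least 100 UMIs there, 1.42% were at least 2-fold lower, while the list took genes from 30 UMIs. Setd1b, an H3K4 methyltransferase at chr5:123142193-123168629 on the plus strand, was at 18.7 CPM in IEG nuclei and 17.1 CPM in matched nuclei (ratio 1.09, 0.711 to 1.65). By set, Setd1b was at 30.3, 16.0, 16.6, 13.5, 22.6 and 0 CPM in IEG nuclei of sets 1 to 6 and at 18.7, 16.1, 16.0, 11.0, 28.8 and 14.5 CPM in matched nuclei. Hcfc1, a subunit of these complexes, had the highest ratio of the list (1.42, 0.944 to 2.11) and Wdr5, a core subunit, the lowest (0.716, 0.438 to 1.13). With 33 and 89 UMIs of Setd1b on the 2 sides, a difference within that interval was not detectable.

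Stress genes and markers of other cells were examined beside these results. Of 8 stress and heat shock genes with enough UMIs (of 16), none was past 2-fold, with a median log2 ratio of 0.28 and Hspa8, a constitutive chaperone, at 48.7 CPM in IEG nuclei and 35.1 CPM in matched nuclei (ratio 1.39). Oligodendrocyte markers summed to 255 CPM in IEG nuclei and 337 CPM in matched nuclei, astrocyte markers to 211 and 184 CPM, and microglial markers to 177 and 155 CPM. Inhibitory neuron markers summed to 33.4 and 42.6 CPM, vascular markers to 17.0 and 37.4 CPM, striatal markers to 17.0 and 26.3 CPM, and oligodendrocyte precursor markers to 10.8 and 12.1 CPM. Gfap, Pvalb, Cldn5, Drd2 and Adora2a were at 0 in the IEG nuclei. Dcn, a proteoglycan of vascular cells that also led 2 CA1-like clusters, was at 6.79 and 25.5 CPM (ratio 0.266, 0.134 to 0.481). The part of these markers in the results was not tested. The microglial gene Inpp5d had a ratio of 3.71, which rested on 1 nucleus with 34 of its 39 UMIs. Without the clusters that had raised markers of another cell type, 34 genes were at least 2-fold higher and 53 lower, with Nr4a2 at 4.97, Bdnf at 3.88 and Btg2 at 7.86.

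Nr4a2 and Homer1 were at least 2-fold higher in each of the 3 classes with the most matched IEG nuclei. In CA1-like nuclei (104 IEG and 312 matched), Nr4a2 was at 120 CPM in IEG nuclei and 19.99 CPM in matched nuclei (ratio 6.00, 4.30 to 8.47), Bdnf at 94.9 and 21.1 CPM (ratio 4.50), and Homer1 at 472 and 190 CPM (ratio 2.49). In CA2/CA3-like nuclei (24 and 72), Nr4a2 was at 97.9 and 3.91 CPM (ratio 25.1, 8.94 to 97.3), Bdnf at 104 and 25.4 CPM (ratio 4.08, 2.40 to 7.04), and Scg2 at 72.0 and 5.86 CPM (ratio 12.3). In subicular-type nuclei (22 and 66), Nr4a2 was at 169 and 62.6 CPM (ratio 2.71, 1.64 to 4.47), Homer1 at 333 and 155 CPM (ratio 2.16), and Bdnf at 25.7 and 12.2 CPM (ratio 2.11, 0.528 to 7.72).

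The classes also differed in the level of matched nuclei. Matched nuclei of the subicular type held 62.6 CPM of Nr4a2, those of CA1-like 19.99 CPM and those of CA2/CA3-like 3.91 CPM (4 UMIs), while IEG nuclei of the 3 classes lay at 97.9 to 169 CPM. For Nr4a3 the order was another, with 56.6 CPM in matched CA2/CA3-like nuclei, 25.5 CPM in CA1-like and 3.48 CPM (2 UMIs) in subicular-type. Btg2 had no UMI in the 22 matched subicular-type IEG nuclei, which include none of the 14 from set 1, and 2 UMIs in their 66 matched nuclei. Sorcs3 had a ratio of 1.37 in CA1-like, 1.52 in CA2/CA3-like and 1.01 in subicular-type nuclei.

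Levels of genes outside the rule were then followed over the number of rule genes in a nucleus, in the 2 sets with at least 50 IEG nuclei (sets 1 and 5), with nuclei of 0, 1 and 2 genes matched to the IEG nuclei by set, class and depth. Homer1 was at 197, 239, 308, 400 and 616 CPM in nuclei with 0, 1, 2, 3 and 4 of the genes (94, 94, 94, 47 and 25 nuclei) and at 1334 CPM in the 22 nuclei with at least 5. Nr4a2 was at 33.4, 46.9, 59.3, 139, 134 and 419 CPM along the same steps, and Bdnf at 31.8, 28.2, 67.3, 72.4, 134 and 221 CPM. All 3 genes were highest at 5 or more. The mix of sets changed along the steps. Set 5 gave 53 of the 94 nuclei at each of 0, 1 and 2 genes. It gave 27 of 47 at 3, 12 of 25 at 4 and 14 of 22 at 5 or more. In matched IEG nuclei Nr4a2 was at 476 CPM in set 5 and 75.8 CPM in set 1. The part of this mix in the steps was not tested.

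Btg2 was at 9.54, 3.13, 9.62, 46.4, 97.5 and 305 CPM. Dusp1 was at 1.59, 6.26, 4.81, 14.5, 18.3 and 130 CPM, and 17 of its 33 UMIs lay in the 22 nuclei with at least 5 genes. Inhba was at 74.7, 61.0, 41.7, 52.2, 67.1 and 137 CPM, and Setd1b, with 2 UMIs in each of the last steps, at 23.8, 39.1, 17.6, 29.0, 12.2 and 15.2 CPM. Setd1b had no steady direction, and Inhba was lowest at 2 genes. Median depth was 4219 to 4450 UMIs in 5 of the steps and 6774 UMIs at 4 genes.

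**Figure D5:**
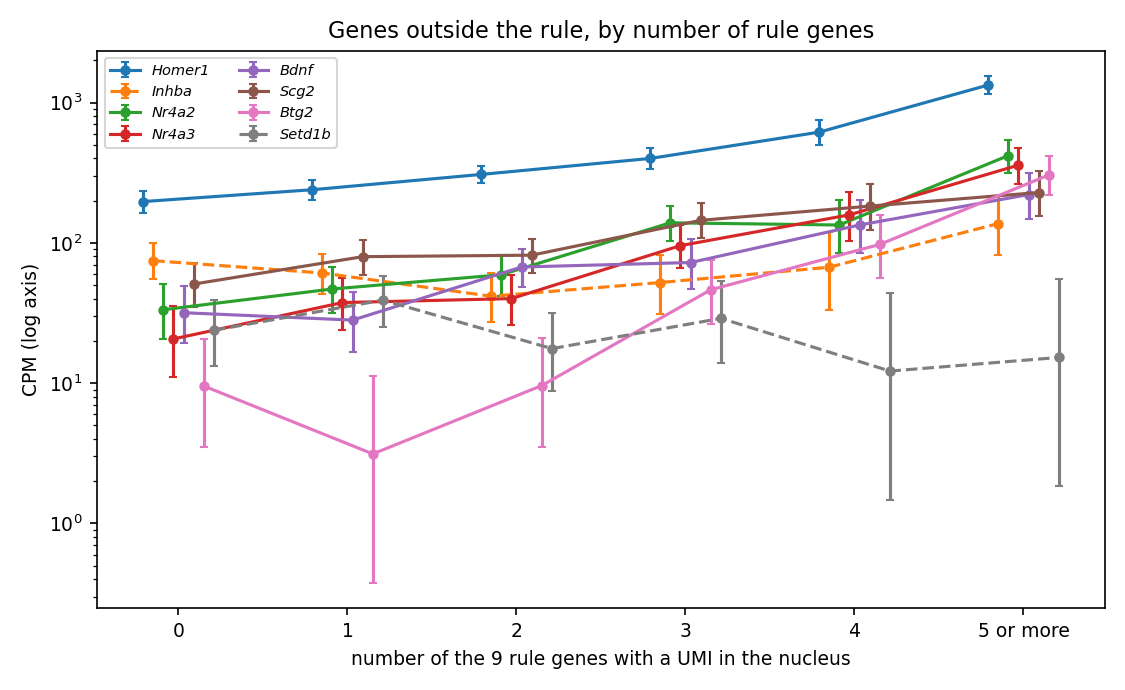
CPM (log axis, with 95% Poisson intervals) of 8 genes outside the rule in nuclei of barcode sets 1 and 5 with 0 to 5 or more of the 9 rule genes. Homer1, Nr4a2, Nr4a3, Bdnf, Scg2 and Btg2 are highest at 5 or more, where Homer1 reaches 1334 CPM, and the dashed line of Setd1b has no steady direction.

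Matching on set and depth alone, as the plain wording of the rule gives, used 294 IEG nuclei and 882 matched nuclei. Of 9444 genes, 99 (1.05%) were then higher by 2-fold or more and 354 (3.75%) lower, and 25 of the 31 genes higher in the class-matched comparison were among the 99. Nr4a2 stood at 6.38, Vgf at 3.84, Bdnf at 1.94 and Scg2 at 1.96. All 8 oligodendrocyte markers were at least 2-fold lower in that comparison, against 1 of 8 with class matching. This comparison mixes the difference between IEG nuclei and others with that between classes.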

How the data were processed

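The deposited file is 1 matrix of raw UMI counts per gene and barcode, made by the authors with Cell Ranger 4.0.0, per the file headers; the submitters' processing notes name GRCm38 and mm10. The sources used here do not give the annotation release, intron counting or strand use. No column belonged to samples of another series (0). Nuclei were clustered with scanpy 1.11.5 and leidenalg 0.10.2 (2000 variable genes, 30 components, resolution 1) without any listed gene; class names rest on markers, by a naming rule set after the clusters were seen. Doublets were called with Scrublet (expected rate 0.05) and kept. Ratios are CPM ratios with exact conditional binomial intervals, levels have exact Poisson intervals and shares Clopper-Pearson intervals, covering counting error only. Genes named are the 12 highest and 12 lowest ratios with at least 100 UMIs and 1 direction in both sets with at least 50 IEG nuclei, up to 4 genes per list, and Setd1b; others were chosen after their values were seen. The members and lists were chosen with earlier results of these data known. Gene positions are from GENCODE M21, which holds 24715 of the 24837 gene IDs. The statistics were tested on simulated data.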

Additional observations from a re-analysis of the deposited data

Results flagged for a closer look

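Nuclei outside the excitatory rule, of which the report used only those marked as oligodendrocytes, also held such transcripts. Of 6731 such barcodes, 82 (1.22%, 0.970 to 1.51%) had at least 3 of the 9 genes, 62 of them in set 1. After thinning to 2000 UMIs, 18 of 3953 (0.455%, 0.270 to 0.719%) did, and 0 of 1111 oligodendrocyte-marked nuclei, whose exact upper limit of 0.331% lies within that interval. Inhibitory nuclei gave 16 of 1058 (1.51%, 0.867 to 2.44%), 15 of them in set 1, and 5 of 993 (0.504%, 0.164 to 1.17%) after thinning.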

How the results depend on the processing

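The share of IEG nuclei, 3.98% of excitatory nuclei, was 11.4% with at least 2 genes, 1.52% with at least 4 and 0.714% after thinning, and 3.01 to 4.75% when 1 barcode set was left out. Genes at least 2-fold higher numbered 31, and 99 when matched on set and depth only, 99 from 30 UMIs, 18 in sets 2 to 4, and 22 to 39 when 1 set was left out. Genes at least 2-fold lower numbered 51, and 14 with 1 nearest nucleus, 354 when matched on set and depth only, 266 from 30 UMIs, 27 within single clusters, 32 in sets 1 and 5, and 37 to 54 when 1 set was left out. Among named genes past 2-fold, the direction turned for Reln (1.13 with 1 nearest nucleus), Mov10l1 (2.12 with at least 4 genes) and Dusp1 (0.805 in sets 2 to 4). It turned for Inpp5d, at 0.850 when matched on set and depth only, 0.988 with at least 4 genes, 0.508 within single clusters, 0.491 in sets 1 and 5 and 0.526 to 8.63 when 1 set was left out. Of genes under 2-fold, Mef2c reached 1.21 and Crtc2 1.13 with at least 4 genes, Grik1 0.946 in sets 1 and 5, and Jun 0.656 when matched on set and depth only. Over all sets instead of sets 1 and 5, levels at 5 or more genes were 307 CPM for Nr4a2, 194 for Btg2, 142 for Tiparp, 123 for Pcsk1 and 1086 for Homer1. Of the other values for single genes and lists, 173 of the alternatives moved beyond the counting interval (for a list, beyond a set distance on the log2 scale) and 1276 did not. Single-cluster matching, the runs without mixed clusters, in sets 2 to 4 and in sets 1 and 5, and the gradient over all sets were chosen after seeing the data. Except where fewer sets or genes entered, the cause was not tested. No paired analysis was possible because no barcode set is tied to a sample. Genes with few UMIs, Setd1b among them, are limited by depth.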
